A study of Mus musculus with 11 samples.

Results

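GABA-A receptors are the chloride channels through which the transmitter GABA inhibits neurons of the adult brain. Each receptor is a ring of subunits, usually of alpha and beta types together with a gamma or delta subunit. GABA binds where a beta subunit meets an alpha subunit, and the choice of alpha and of gamma or delta helps to set where the receptor sits and how it responds. The 7 genes described here encode the alpha subunits 2, 3, 4 and 5 (Gabra2, Gabra3, Gabra4, Gabra5), the beta subunits 1 and 2 (Gabrb1, Gabrb2) and the delta subunit (Gabrd). They were taken by symbol from the 48709 genes of the count files, and all 7 were among the 17293 genes that passed the filter on low counts and were tested.

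RNA was measured in hippocampal CA1, a field of pyramidal neurons needed for memory, in 6 libraries from CamkdeltaC transgenic mice and 5 libraries from littermate controls, all at 3 months of age. CamkdeltaC is a splice form of calcium/calmodulin-dependent protein kinase II delta, and the line, with the transgene under a promoter of heart muscle, is a model of heart failure. The series title names the link between heart failure and impaired memory as its question. Strain background, and the sex and animal of each library, are not given in the labels; mice of both sexes were used, and p-values measure the spread between these libraries, which may be technical in part. Transgenic libraries held 24403918 to 34153726 counts, control 5 held 14263784 and the other controls 31679533 to 36898689.

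In transgenic CA1, the alpha 2, alpha 4, beta 1 and beta 2 subunit genes fell, by 0.29 to 0.52 on the log2 scale, and no subunit gene of the 7 rose. Of all genes tested, 17.9% changed at an edgeR adjusted p under 0.05, 10.5% downward and 7.41% upward, against 4 of these 7 genes, all downward. The median log2 fold change was -0.29 over the 7 genes and 0.009 over all genes tested. The fold changes of the 7 genes rose with the GC content of their longest transcripts. After removal of that GC trend from each library none of the 7 passed the test. With the mean GC content over protein-coding transcripts, an alternative chosen after seeing the data, Gabrb1 and Gabra4 still passed (edgeR adjusted p 0.0294 and 0.0477).

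The call of 4 genes, before removal of a GC trend, is read beside a series-wide trend. The slope of log2 CPM (counts scaled to the size of the library) on GC content was taken with each library set against the mean of all. It was 0.127 ± 0.134 per 10 GC points in transgenic libraries (SD, n = 6) and -0.153 ± 0.064 in control libraries (SD, n = 5). Transgenic slopes fell in the order of the library numbers, from 0.274 in transgenic 1 to -0.061 in transgenic 6. The cause of that order was not tested. Camk2d, the gene of the transgene, was at 67.8 ± 36.7 CPM in transgenic and 72.0 ± 18.6 CPM in control libraries (log2 fold change -0.08, edgeR adjusted p 0.873), and does not check the labels, since the transgene is expressed in the heart. CA1 pyramidal markers such as Wfs1 and Fibcd1 were present in every library.

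Gabra2, Gabra4 and Gabrb1 lie in one cluster on chromosome 5. Their promoters are shown because these 3 genes had lower values in every transgenic library than in any control library. Of all genes tested 4.73% did so, and with the GC trend removed the groups overlapped for these 3. The windows hold 250 bases before the annotated start and 50 after it, from RefSeq on build GRCm38.p6, each read along the strand of its gene. Capitals mark the GC box GGGCGG on either strand.
Gabra2, chr5:71095800-71096099, minus strand: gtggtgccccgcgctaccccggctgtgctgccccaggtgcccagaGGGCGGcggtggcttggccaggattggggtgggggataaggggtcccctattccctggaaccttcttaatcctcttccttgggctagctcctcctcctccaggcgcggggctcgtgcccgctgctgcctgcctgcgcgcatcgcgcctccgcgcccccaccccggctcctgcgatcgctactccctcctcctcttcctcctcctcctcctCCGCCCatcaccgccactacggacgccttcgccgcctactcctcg
Gabra4, chr5:71658259-71658558, minus strand: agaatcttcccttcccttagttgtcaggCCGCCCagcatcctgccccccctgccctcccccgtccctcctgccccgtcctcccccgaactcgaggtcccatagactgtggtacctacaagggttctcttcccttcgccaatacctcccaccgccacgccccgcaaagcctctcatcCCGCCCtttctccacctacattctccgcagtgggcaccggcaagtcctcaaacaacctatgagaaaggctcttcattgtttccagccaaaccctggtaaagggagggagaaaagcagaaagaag
Gabrb1, chr5:71657671-71657970, plus strand: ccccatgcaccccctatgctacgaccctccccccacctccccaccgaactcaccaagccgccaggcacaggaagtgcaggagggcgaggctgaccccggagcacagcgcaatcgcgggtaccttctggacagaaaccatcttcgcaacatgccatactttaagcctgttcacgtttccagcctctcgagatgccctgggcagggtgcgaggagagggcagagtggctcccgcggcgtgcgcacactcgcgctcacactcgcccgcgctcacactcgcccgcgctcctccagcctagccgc
The Gabra2 window is 70% GC with 25 CpG dinucleotides, the Gabra4 window 58.7% with 12 and the Gabrb1 window shown 66% with 25. A second Gabrb1 window, at a start further along the gene (chr5:71699682-71699981), is 50.3% GC with 9. Over 32851 such windows of all genes the median is 52.7% GC and 7 CpG dinucleotides. The Gabra2 and Gabra4 windows each hold 2 GC boxes and the Gabrb1 window shown holds none. A GC box lies in 35.7% of all windows, and a match describes letters in a window, not a site. Gabra4 and Gabrb1 start head to head on opposite strands, and as annotated by GENCODE they overlap by 196 bases, of which 46 are exonic in both genes, so that reads from that stretch cannot be told apart. Of the 7 genes, 6 had a window in the RefSeq table, 10 windows in all; Gabrd had none.

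The subunits share a stretch of protein in the channel-forming part, and the codons that write it differ between the genes. An identical run of 8 residues in all 7 genes is written with these 24 bases, in which capitals mark a G or C at the last position of a codon, from the longest open reading frame of GENCODE transcripts.
Gabra2: acaactgttctaacaatGacaacC
Gabra3: acCactgttctCacCatGacCacC
Gabra4: acCacagtCctCacGatGacCacC
Gabra5: acCacagtGctGacCatGacaaca
Gabrb1: actacGgtGctGacCatGacCacC
Gabrb2: acaactgtCctaacaatGacCaca
Gabrd: acCactgtGctGacaatGacCacG
Gabra2 uses G or C at 2 of the 8 last codon positions, Gabrb2 at 3, Gabra5 at 5, Gabra3 and Gabrd at 6, and Gabra4 and Gabrb1 at 7. The order of these counts is not that of the GC content of the transcripts that hold these frames. Those of Gabra4 and Gabrb1 are at 44.2% and 40.9% GC and that of Gabrd at 56.8%. For some genes this transcript is not the longest one, whose GC content is used below. Over the whole open reading frame the share of last codon positions with G or C was 45.6% for Gabra2, 45.3% for Gabra4, 46.8% for Gabra3, 53.8% for Gabrb2, 58% for Gabra5, 59.2% for Gabrb1 and 70.9% for Gabrd. Gabrb1 was at 48.8% GC over its reading frame and at 40.9% over its whole transcript, in which 12228 bases at 40% GC follow the frame. Gabra2 was at 43% GC over its reading frame and at 38.4% over its transcript, in which 4205 bases at 35.8% GC follow the frame.

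Gabra2 encodes the alpha 2 subunit, which is found at synapses on the initial segment of pyramidal cell axons (ENSMUSG00000000560, chr5:70957597-71095849, minus strand, build mm10). Its level was 194 to 241 CPM in transgenic libraries, with a median of 222, and 289, 273, 314, 389 and 313 CPM in control libraries 1 to 5. All 6 transgenic libraries lay below all 5 controls, which holds for 4.73% of genes tested in that direction. Means were 220 ± 19.8 CPM in transgenic and 316 ± 44.3 CPM in control libraries (SD, n = 6 and 5), a log2 fold change of -0.52 (SE 0.09, edgeR adjusted p 0.0103). Since the tissue was analysed in bulk, fewer cells of a type that holds a transcript and less of that transcript per cell cannot be told apart, here and for the genes that follow.

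Gabrb1 and Gabra4, neighbours of Gabra2, fell in the same way. Gabrb1 encodes the beta 1 subunit, one of the beta subunits that take part in binding GABA (ENSMUSG00000029212, chr5:71658113-72149037, plus strand). It stood at 168 to 214 CPM in transgenic libraries, with a median of 199, and at 268, 228, 285, 299 and 273 CPM in control libraries. Every transgenic library was below every control, the gap being narrowest between the highest transgenic value, 214, and the lowest control value, 228. The log2 fold change was -0.47 (SE 0.08, edgeR adjusted p 0.0103) on means of 195 ± 19.0 CPM in transgenic and 271 ± 26.5 CPM in control libraries (SD, n = 6 and 5).

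Gabra4 encodes the alpha 4 subunit, known as a partner of delta in receptors outside synapses, above all in dentate granule cells (ENSMUSG00000029211, chr5:71569749-71658308, minus strand). Its values were 68.7 to 93.0 CPM in transgenic libraries, with a median of 83.7, against 104, 107, 115, 112 and 97.7 CPM in control libraries. The groups did not overlap. The log2 fold change was -0.38 (SE 0.08, edgeR adjusted p 0.0125), with means of 82.2 ± 9.62 CPM in transgenic and 107 ± 6.57 CPM in control libraries (SD, n = 6 and 5). Markers of dentate granule cells, which could enter a CA1 dissection, summed to 91.4 to 230 CPM in transgenic and 87.2 to 265 CPM in control libraries, with 0 of 8 called, and their part in the levels of Gabra4 and Gabrd was not tested.

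Gabrb2 encodes the beta 2 subunit, which is widespread in the adult brain (ENSMUSG00000007653, chr11:42419757-42629028, plus strand). It was at 124 to 164 CPM in transgenic libraries, with a median of 146, and at 196, 165, 159, 158 and 193 CPM in control libraries. All but 1 of the transgenic libraries lay below every control, so the groups overlapped. The log2 fold change was -0.29 (SE 0.09, edgeR adjusted p 0.0331), with means of 142 ± 15.8 CPM in transgenic and 174 ± 18.6 CPM in control libraries (SD, n = 6 and 5). The call was lost in 6 of the 11 fits that left out 1 library, those without transgenic 1, 2, 3 or 4 and without control 1 or 5, at adjusted p up to 0.0853.

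**Figure D1:**
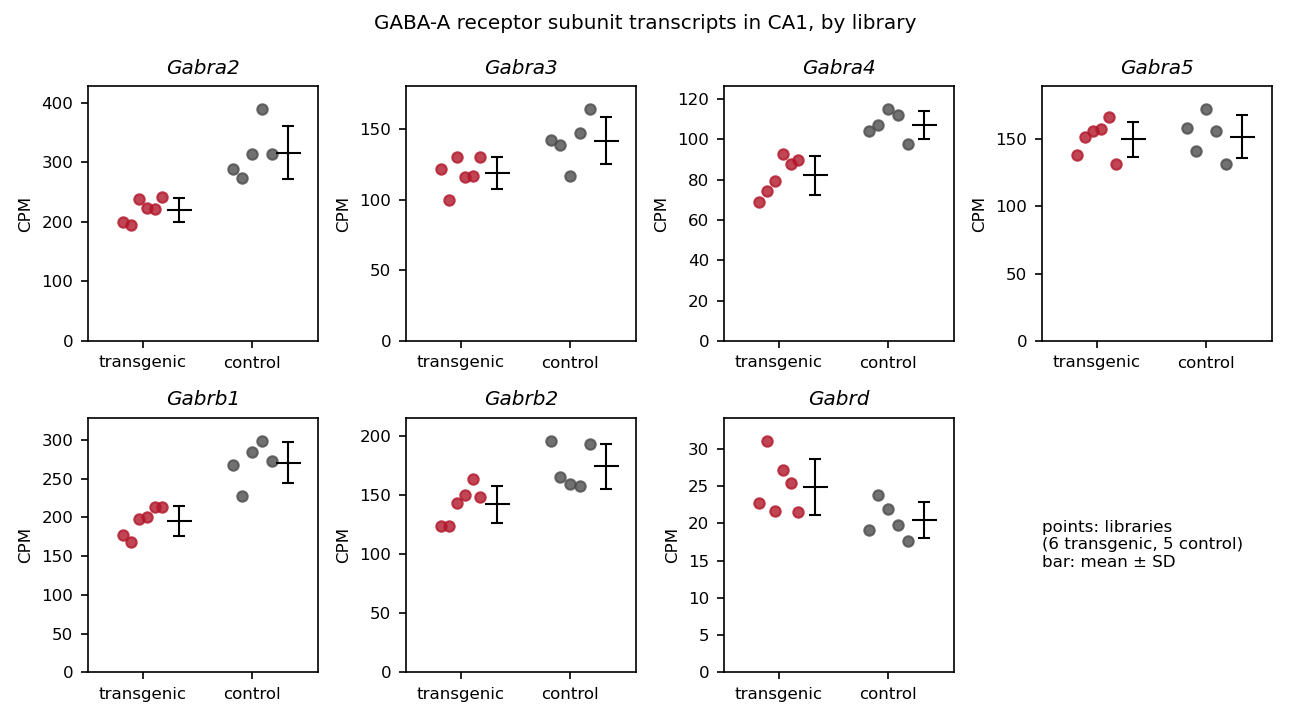
Level of each subunit gene in CPM on the y axis, in the transgenic libraries (left in each panel, n = 6) and control libraries (right, n = 5), with points for single libraries and bars for the mean and SD. Gabra2, Gabra4 and Gabrb1 show no overlap between the groups, Gabrb2 and Gabra3 are lower on average with overlap, and Gabra5 and Gabrd overlap.

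The remaining alpha subunits did not pass the test. Gabra3 encodes the alpha 3 subunit (ENSMUSG00000031343, chrX:72432681-72656848, minus strand). Its level was 99.7 to 130 CPM in transgenic libraries, with a median of 119, and 142, 139, 117, 147 and 164 CPM in control libraries. The groups overlapped, with 3 of the 6 transgenic libraries below every control. The log2 fold change was -0.25 (SE 0.08) and the edgeR adjusted p 0.055, close to the threshold. Gabra3 passed it without transgenic 6 (adjusted p 0.0289) and without control 3 (adjusted p 0.0345), and also with DESeq2 (adjusted p 0.0364), voom (adjusted p 0.0294), the level of Xist as a covariate (adjusted p 0.0371) and 1 surrogate variable (adjusted p 0.0437). After removal of the GC trend it was at -0.05 (SE 0.08, edgeR adjusted p 0.786).

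Gabra5 encodes the alpha 5 subunit, which is enriched in the hippocampus and is the alpha subunit known for tonic inhibition of CA1 pyramidal neurons (ENSMUSG00000055078, chr7:57407672-57510059, minus strand). It was at 131 to 166 CPM in transgenic libraries, with a median of 153, and at 158, 141, 172, 156 and 131 CPM in control libraries. The ranges were nearly the same. The log2 fold change was -0.02 (SE 0.08, edgeR adjusted p 0.905), with the sign turned under upper-quartile scaling (0.001), which does not show that the levels were equal. A gene on the other strand, Gm9962, shares 148 exonic bases with it.

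Gabrd encodes the delta subunit of receptors outside synapses (ENSMUSG00000029054, chr4:155384980-155398112, minus strand). It was the only one of the 7 with a positive fold change, 0.28 (SE 0.10), and it missed the threshold at an edgeR adjusted p of 0.0793. Levels were 21.5 to 31.1 CPM in transgenic libraries, with a median of 24.1, and 19.1, 23.8, 21.9, 19.8 and 17.7 CPM in control libraries. Of the 6 transgenic libraries, 3 were above every control. Without transgenic 6 the adjusted p was 0.0368 and without control 2 it was 0.0427. With 253 counts in control 5 and up to 862 in a transgenic library, it is the least deeply covered of the 7.

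**Figure D2:**
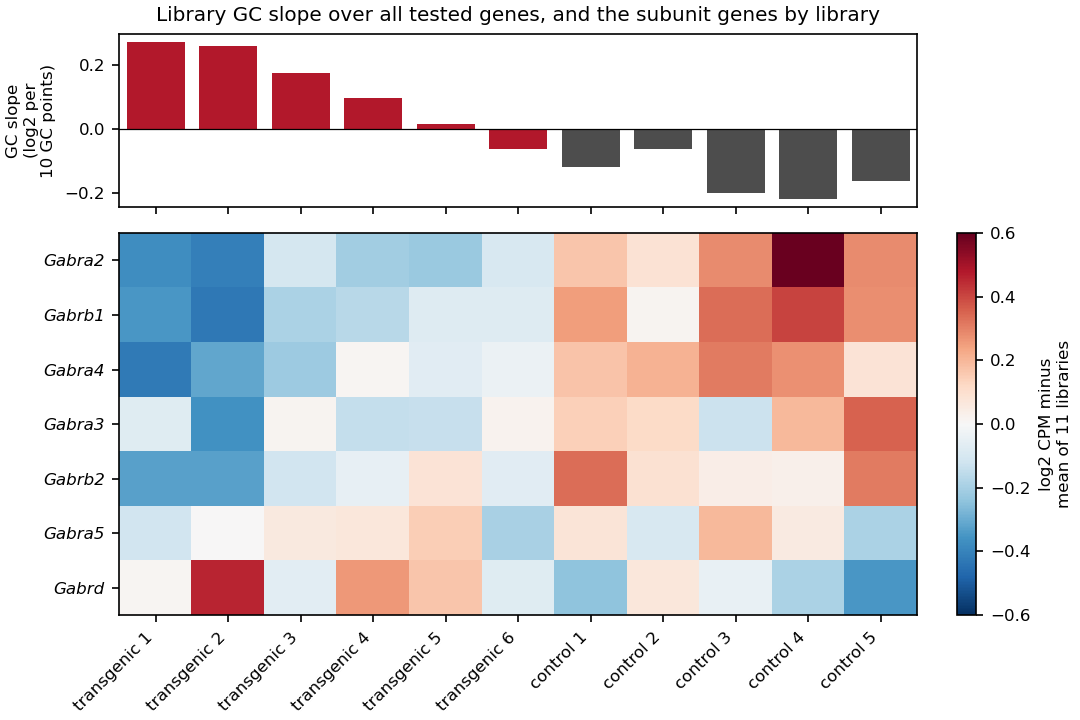
Bars on top give each library's slope of log2 CPM on GC content over all tested genes (log2 per 10 GC points); the colours below give the log2 CPM of each subunit gene minus its mean over the 11 libraries, with transgenic libraries left and control libraries right. Gabra2 and Gabrb1 are below their mean in all 6 transgenic columns and Gabra4 in all but transgenic 4 (0.011), while Gabrd is highest in transgenic 2 (0.456) and lowest in control 5 (-0.35).

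Compared per kilobase of merged exons, the order of the levels was led by Gabra5 in both groups. In transgenic libraries the levels in CPM per kilobase were 50.4 ± 4.38 for Gabra5, 30.3 ± 2.87 for Gabra3, 28.7 ± 2.59 for Gabra2 and 22.3 ± 2.49 for Gabrb2 (SD, n = 6). Below them stood Gabrb1 at 14.1 ± 1.38, Gabra4 at 13.5 ± 1.58 and Gabrd at 8.67 ± 1.30. By merged exons, the neighbours Gabra3 and Gabra2, Gabra2 and Gabrb2, and Gabrb1 and Gabra4 overlapped over libraries.

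In control libraries Gabra5 stood at 50.9 ± 5.29, Gabra2 at 41.3 ± 5.80, Gabra3 at 36.1 ± 4.28 and Gabrb2 at 27.4 ± 2.92 CPM per kilobase (SD, n = 5). Gabrb1 followed at 19.6 ± 1.92, Gabra4 at 17.6 ± 1.08 and Gabrd at 7.12 ± 0.829. By this length Gabra2 stood below Gabra3 in transgenic and above it in control libraries, in both cases with overlapping ranges. The ranges of each neighbour from Gabra5 to Gabrb2, and of Gabrb1 and Gabra4, overlapped. The order depended on the length used. Per kilobase of the longest transcript, Gabra2 was above Gabra3 in both groups, at 37.5 ± 3.38 and 32.5 ± 3.08 in transgenic libraries and 53.9 ± 7.57 and 38.7 ± 4.59 in control libraries. Gabra4 was then above Gabrb1 with no overlap, at 20 ± 2.34 and 14.2 ± 1.39 in transgenic libraries and 26.0 ± 1.6 and 19.7 ± 1.93 in control libraries. By either length Gabra5 had the highest mean and Gabrd the lowest. Per kilobase of the longest transcript, Gabra5 (49.2 to 64.2) and Gabra2 (46.7 to 66.4) overlapped in control libraries.

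**Figure D3:**
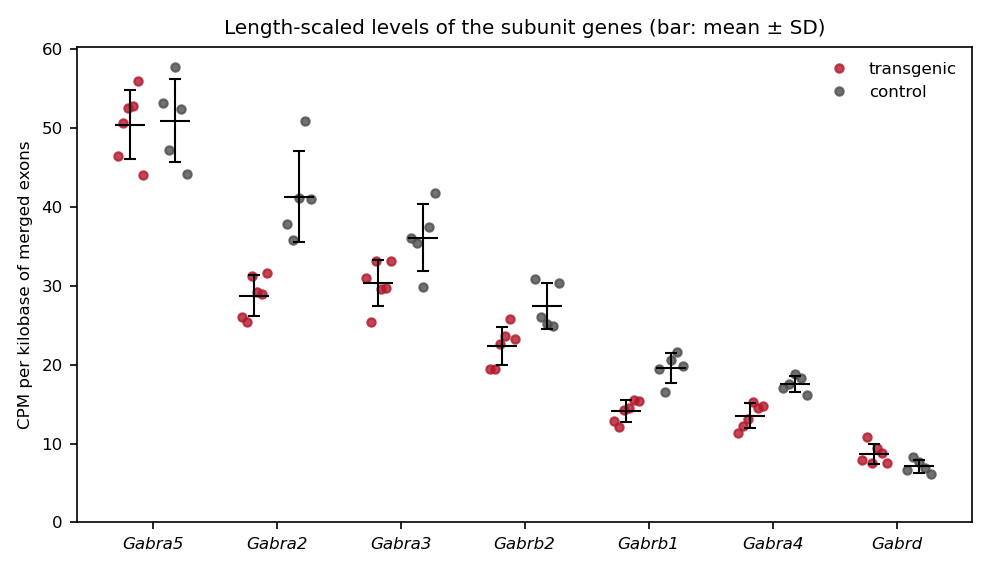
Length-scaled level of each subunit gene in CPM per kilobase of merged exons, for transgenic libraries (n = 6) and control libraries (n = 5), as points with the mean and SD. By mean, Gabra5 is highest and Gabrd lowest in both groups, and Gabra2 lies lower in the transgenic group.

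Ratios between 3 pairs of subunits were taken in each library, on the log2 scale of the length-scaled levels and with no test. Gabrd to Gabra4, the subunits that pair outside synapses, was -0.65 ± 0.28 in transgenic libraries (range -0.98 to -0.18) and -1.31 ± 0.13 in control libraries (range -1.41 to -1.09). The groups did not overlap, and the difference was 0.66. After removal of the GC trend it was 0.30 and the groups overlapped. Gabra5 to Gabra2 was 0.81 ± 0.18 in transgenic and 0.31 ± 0.22 in control libraries (SD, n = 6 and 5), a difference of 0.50 that was 0.13 after removal of the trend. Gabrb1 to Gabrb2 was -0.66 ± 0.06 in transgenic and -0.49 ± 0.22 in control libraries, a difference of -0.17 that was -0.04 after it.

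The fold changes of the 7 genes were then set beside the GC content of their longest annotated transcripts. Gabra2 had 38.4% GC and the largest fall, Gabrb1 had 40.9%, Gabra4 42.2%, Gabra3 43.1%, Gabrb2 44.0%, Gabra5 47.1% and Gabrd 54.7%. The median over genes tested was 49.6%, so that 6 of the 7 were below it. Over the 7 genes the fold change rose with GC content with a Pearson r of 0.98 and a Spearman rho of 0.96, given as a description over genes that share the same 11 libraries. Over 17246 genes with a GC value Spearman's rho was 0.684. The order of the 7 depended on the transcript used. By mean GC content over protein-coding transcripts, Gabra4 (45.9%) and Gabra5 (46.0%) were nearly equal, with fold changes of -0.38 and -0.02. Gabrb1 and Gabra3 were both at 44.1%, with fold changes of -0.47 and -0.25. Gabra2 (38.4%) and Gabrd (56.8%) kept the lowest and highest GC content. No correlation was taken with that mean.

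**Figure D4:**
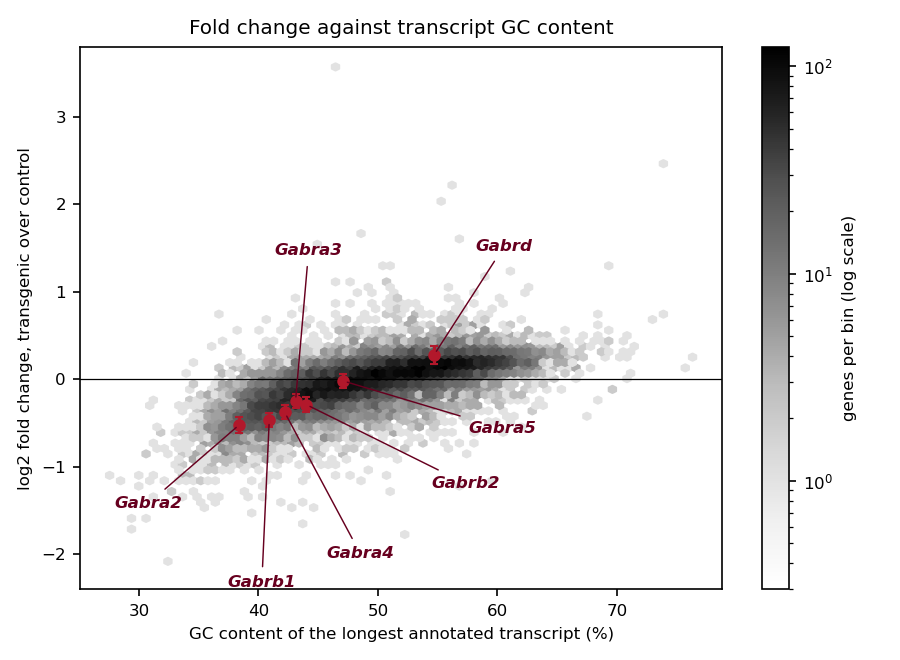
Log2 fold change of transgenic over control libraries (y axis) against GC content of the longest annotated transcript in percent (x axis), for all genes as grey bins on a log scale and for the 7 subunit genes as red points with SE. Gabra2 at 38.4% GC is lowest and Gabrd at 54.7% is highest, both within the grey band of all genes.

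When the GC trend of each library was removed, the 7 genes had a median log2 fold change of -0.09, against -0.003 over all genes, and 0 of the 7 passed the edgeR test, where 1.98% of genes did and 0.821% did so downward. At an unadjusted p under 0.05 there were 2, Gabra4 and Gabrb1. Gabra2 was then at -0.09 (SE 0.08, adjusted p 0.607), Gabra4 at -0.15 (SE 0.05, adjusted p 0.136) and Gabrb1 at -0.18 (SE 0.05, adjusted p 0.0772). None of the 7 had groups that did not overlap, which 1.45% of genes had in the lower direction. The adjustment is stricter in that fit, in which small p-values are rarer (3143 genes at an unadjusted p under 0.05, against 5996 without the removal).

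Gabrb1 and Gabra4 depended on which transcript gave the GC content. An alternative chosen after seeing the data used the mean GC content over annotated protein-coding transcripts, or over all transcripts of a gene with none coding. The longest transcript had been taken from transcripts of any type. With this mean, Gabrb1 fell by 0.26 (edgeR adjusted p 0.0294) and Gabra4 by 0.24 (edgeR adjusted p 0.0477), where 2.25% of genes were called, 1.39% downward. The mean transcript GC of Gabrb1 and Gabra4 was 44.1% and 45.9%, against 40.9% and 42.2% for the longest. The 46 shared exonic bases of this pair mean that part of their reads cannot be assigned to one of them.

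**Figure D5:**
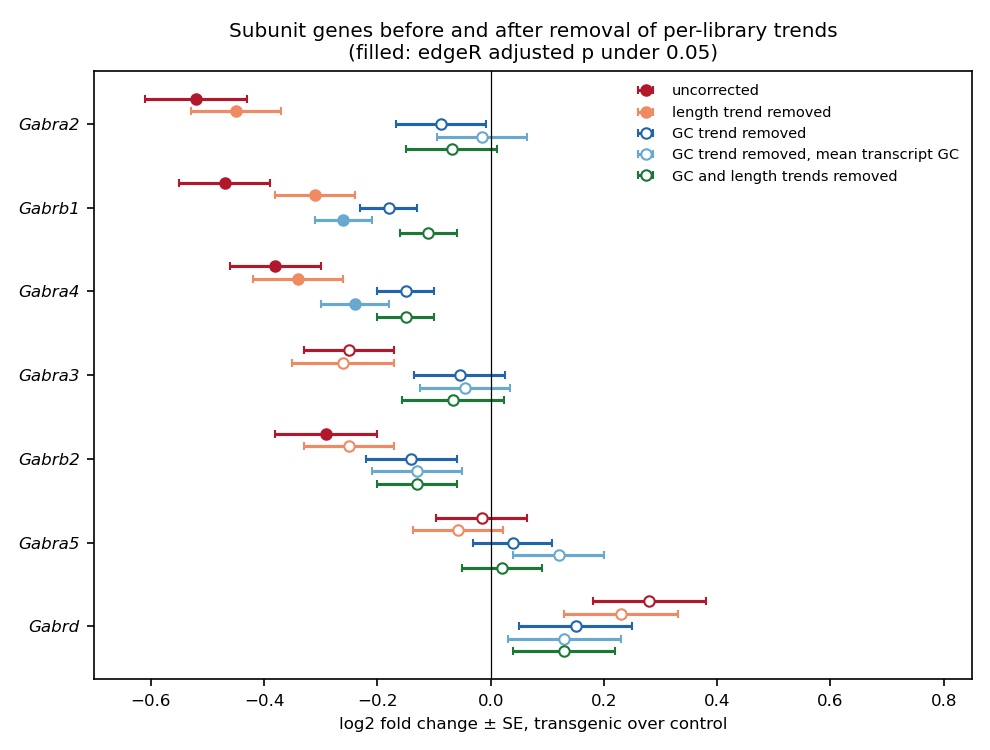
Log2 fold change of transgenic over control libraries with SE for each subunit gene, without correction and after removal of trends of GC content or length from each library. Filled points have an edgeR adjusted p under 0.05, which after GC removal holds for Gabrb1 and Gabra4 with the mean transcript GC, and for no gene with the longest transcript.

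Other GABA-A subunit genes were lower as well. Of 12 listed, 8 were tested, 5 fell and none rose, with a median log2 fold change of -0.29, and Gabrp was at 0 in every library. Of all genes tested 10.5% fell and 7.41% rose, with a median of 0.009. Gabrg3, which encodes the gamma 3 subunit, fell to 32.1 ± 3.24 CPM in transgenic libraries, against 40.5 ± 4.48 CPM in controls (log2 fold change -0.33, SE 0.08, edgeR adjusted p 0.0209). Gabrg1, the gamma 1 subunit, was at 20.3 ± 4.94 CPM in transgenic and 29.5 ± 4.92 CPM in control libraries (-0.54, SE 0.15, adjusted p 0.033). With the GC trend removed 0 of these 8 were called and 0 had an unadjusted p under 0.05. Gabrg3 was then at -0.13 and Gabrg1 at 0.04.

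Of 10 tested genes that make, move or break down GABA or set the chloride gradient, 1 rose and 0 were called lower by edgeR. Their median was 0.04, and 5 of the 10 were at an unadjusted edgeR p under 0.05. Of all 17293 genes tested, 7.41% rose, 10.5% fell and 5996 genes were at an unadjusted p under 0.05. Slc32a1, the transporter that loads GABA into vesicles, rose by 0.22 (SE 0.06, edgeR adjusted p 0.0209), with 85.1 ± 4.01 CPM in transgenic and 72.9 ± 5.50 CPM in control libraries, and was at 0.00 after GC removal, where 0 of the 10 were called and 0 had an unadjusted p under 0.05.

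Among 11 tested scaffold and adhesion genes of inhibitory synapses 3 fell, with a median of -0.07, where 10.5% of all genes tested fell. Dmd, dystrophin, which is found at inhibitory synapses, fell by 0.38 (SE 0.07, edgeR adjusted p 0.0117) and was at -0.11 after GC removal. Slitrk3, an adhesion protein that promotes inhibitory synapses, fell by 0.24 (SE 0.07, adjusted p 0.0331) and was at -0.18 (adjusted p 0.146) after it. Among 18 assembly and trafficking partners 1 rose and 1 fell, where 7.41% of all genes tested rose and 10.5% fell. Mkln1, muskelin, which regulates receptor transport, fell by 0.36 (SE 0.08, adjusted p 0.017), and Clptm1, which holds receptors back on their way to the surface, rose by 0.19 (SE 0.06, adjusted p 0.0374). After GC removal no gene of either list was called, with 2 of each at an unadjusted p under 0.05.

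Markers of other cells were measured beside these results. By the same edgeR test 7.41% of all genes tested rose and 10.5% fell. Of 12 interneuron markers 1 rose (Slc32a1) and 2 fell (Erbb4 and Dlx6os1), with a summed level of 1160 to 1310 CPM in transgenic and 1160 to 1260 CPM in control libraries. CA1 pyramidal markers summed to 1150 to 1470 CPM in transgenic and 979 to 1260 CPM in control libraries, with 0 of 7 called. Of 8 astrocyte markers 3 rose, at sums of 1790 to 2230 CPM in transgenic and 1610 to 1970 CPM in control libraries, and of 8 microglia markers 4 rose, at 335 to 426 CPM in transgenic and 294 to 351 CPM in control libraries. Endothelial markers, 1 of 6 lower, summed to 125 to 166 CPM in transgenic and 135 to 188 CPM in control libraries, and none of 8 oligodendrocyte markers was called, at 3590 to 6180 CPM in transgenic and 2920 to 5070 CPM in control libraries. With the GC trend removed, edgeR called 0 markers in any of the lists, and 8 of the 67 tested had an unadjusted p under 0.05, against 25 without the removal. No marker was at 0 in all libraries, and their part in the fall of the subunit genes was not tested.

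For each subunit gene, the genes with the most similar log2 CPM over the 11 libraries were found by Pearson r among 12446 genes, as a description, since the libraries share group and GC trend. Gabrb1 was closest to Sbno1 (r = 0.99), Odf2l (0.986) and Wdr26 (0.985), and Gabra2 to Gpr22 (0.979), Nlgn1 (0.976) and Sec23a (0.976). Gabra4 was closest to B4galt6 (0.979), Rnf168 (0.969) and Ergic2 (0.969), and Gabrb2 to Dcun1d4 (0.985), Zyg11b (0.972) and Plag1 (0.968). Gabra3 was closest to Inpp4a (0.964), Parm1 (0.957) and Magi3 (0.947). Gabra5 had the weakest likeness, to Tnfrsf21 (0.899), Epha4 (0.882) and Rnf182 (0.867), and Gabrd was closest to Arsb (0.947), Adcy2 (0.93) and Hepacam (0.915).

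The authors' deposited table of genes lower in transgenic mice, which holds 2014 genes, lists 5 of the 7. It rests on the same 11 libraries, so its folds are no independent check of those computed here. How many genes the authors tested is not given here, so no share over all genes stands beside these 5. In the authors' deposited table Gabra2 has a log2 fold change of -0.52 (adjusted p 1.71e-05), Gabrb1 -0.47 (2.45e-05), Gabra4 -0.38 (0.000403), Gabrb2 -0.29 (0.0147) and Gabra3 -0.24 (0.0322). The authors' deposited table of 1780 higher genes lists none of the 7. The folds are close to those computed here, while the adjusted p-values are smaller than those of edgeR and near those that DESeq2 gave here (1.46e-05 for Gabra2, 1.96e-05 for Gabrb1, 0.000509 for Gabra4, 0.0149 for Gabrb2 and 0.0364 for Gabra3). No source used here gives the tool behind that table.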

How the data were processed

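For each library the authors deposited raw counts by gene, on build mm10; STAR 2.5.2b, featureCounts, Subread 1.5.1 and FastQC 0.11.5 are named per the submitters' processing notes, with no settings stated. The kit (TruSeq v2, single-end reads of 50 bases, per the labels' protocols) does not mark strand. The authors also deposited tables of log2 fold changes and adjusted p-values, used as such; the signal per library in these tables is, by the authors, a count divided by a size factor, and was left out.

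Genes were filtered with filterByExpr by group, scaled with TMM and tested with the quasi-likelihood F test of edgeR 4.0.16 (R 4.3.3), with Benjamini-Hochberg adjustment over 17293 genes and a threshold of 0.05. SE is the fold change over the root of F. Log2 CPM used a prior count of 2. GC content came from GENCODE transcripts, a lowess curve (span 0.3) per library entering as an offset. Names came from GENCODE for 48349 of 48709 identifiers, promoters from RefSeq. The procedure was tested on simulated counts that held no GC trend, so that test does not bear on the GC trend of these libraries. Pairs of libraries within a group all differed by more than sampling noise.

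Alternatives were DESeq2 1.42.0 and its size factors, upper-quartile scaling, 2 filters, limma 3.58.1 voom, Xist, 1 surrogate variable (sva 3.50.0), a length trend, the replicate number as a block, and leaving out each library. The members, lists and alternatives were chosen with earlier results of these data known. Named genes were the 7 subunits, Camk2d, up to 4 called genes with the smallest p per list, and the 3 most alike genes with a mean log2 CPM of at least 1; some genes the rule names are not reported here. Counting depth limits Gabrd most.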

Additional observations from a re-analysis of the deposited data

How the results depend on the processing

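Without GC correction, Gabra2, Gabra4 and Gabrb1 were called in all 11 fits that left out 1 library and under each other alternative that did not remove a GC trend. The number of the 7 genes called was 3 to 6 in those 11 fits, 6 without transgenic 6, and 0 to 1 with the GC trend removed too, the 1 being Gabrb1 without control 2 (edgeR adjusted p 0.0248). It was 0 with the GC trend removed, 0 with GC and length trends removed, 0 with the replicate block and GC removal, and 2 with the mean transcript GC, each with 2 genes at an unadjusted p under 0.05. Gabrb2 missed the threshold with the length trend removed (-0.25, adjusted p 0.0562). Among the 47 synapse genes tested, 11 were called, against 0 with GC removal, 0 with GC and length removal, 0 with the mean transcript GC (4, 5 and 8 at an unadjusted p under 0.05), 7 with length removal, 19 with voom, and 4 to 17 over fits without 1 library (0 to 1 with GC removal too). Of all genes 3094 were called, against 342, 294, 389 and 4774 with GC, GC and length, mean transcript GC and voom, and 1155 to 4712 over fits without 1 library. With GC removal and 1 library left out, 0 to 942 genes were called, the 0 being without transgenic 1, 2, 3 or 4 or control 1, 3, 4 or 5 (2491 to 3224 at an unadjusted p under 0.05).

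The replicate numbers did not pair the libraries, with correlations of same-numbered deviations of 0.197, -0.027, -0.185, -0.051 and 0.023. With the replicate block 4594 genes, 18 synapse genes, and Gabra3 (-0.28) and Gabrd (0.32) besides the 4 were called. Only the transgenic group has a replicate 6, so in the block transgenic 6 takes no part in the difference between groups. The fit without transgenic 6 gave Gabra3 and Gabrd the same folds, -0.28 and 0.32, so the block is no separate alternative to it. With the block and GC removal, 745 genes and 1 synapse gene were called.

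The sign of Gabra5 turned under GC removal (0.039), upper-quartile scaling (0.001), the block (0.023), Xist (0.002) and voom (0.027). It also turned under GC and length removal (0.02), the block with GC removal (0.083) and the mean transcript GC (0.12). The fold change of Gabra5 ranged from -0.062 to 0.083 over fits without 1 library, with or without GC removal. Gabra3 ranged from -0.31 to 0.0 over such fits. With the length of the longest transcript, control means were 53.9 for Gabra2, 26.0 for Gabra4, 56.7 for Gabra5 and 43.7 for Gabrb2 CPM per kilobase. The ratio differences were 0.3 for Gabrd to Gabra4 and 0.13 for Gabra5 to Gabra2 with GC removal. The cause of these shifts was not tested.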

Other observations

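Transgenic 6 and control 2 had nearly equal slopes of log2 CPM on GC content, -0.061 and -0.062 per 10 GC points. This pair was chosen after the values were seen, holds 1 library a group and allows no test. All 7 subunit genes were lower in transgenic 6 than in control 2, Gabra2 at 241 CPM against 273 CPM and Gabra4 at 89.9 CPM against 107 CPM. How many of all genes tested were lower in this pair was not counted. The 7 therefore cannot be told from a general difference between these libraries. Gabrb1 was at 214 CPM in transgenic 6 and 228 CPM in control 2, and Gabrd at 21.5 CPM in transgenic 6 and 23.8 CPM in control 2. For Gabrd this runs opposite to the difference between the group means.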
